A study of Homo sapiens with 4 samples.

Results

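The SERPINB cluster of chromosome 18q21 is a run of clade B serpin genes. The 10 members examined were SERPINB5, SERPINB12, SERPINB13, SERPINB4, SERPINB3, SERPINB11, SERPINB7, SERPINB2, SERPINB10 and SERPINB8, in their order along the chromosome. A peak of accessible chromatin was assigned to the cluster when it overlapped the GENCODE gene body of a member or the 10 kb upstream of it on GRCh38. The windows reached from base 63466958 to base 64019779 of chromosome 18, an interval of 553 kb of which they covered 389 kb. After peaks of the 4 lists that shared at least 1 base were joined into regions, 12 of 93211 regions fell in the windows, and 9 further regions of the interval lay between or beside them.

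Open chromatin had been mapped by ATAC-seq, which reads where a transposase can insert adapters into DNA, in HK1, an established human line of nasopharyngeal carcinoma. The groups were WT cells left untreated (WT), WT cells given interferon-γ (WT-IFN-γ), FLI1 knockout cells left untreated (sgFLI1) and FLI1 knockout cells given interferon-γ (sgFLI1-IFN-γ). FLI1 is a transcription factor of the ETS family, and the treatment lasted 24 h in the study's account of the ATAC-seq cells. Which guide RNA was used for these libraries, and whether the knockout cells were a clone or a pool, was not given in the sources used here. Each group held 1 library, which gives no replicate spread, and groups were compared without a test.

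Serpins trap a target protease by a loop that is cleaved and then drawn into the protein fold, which leaves the protease bound and inactive. The clade B serpins mostly lack a secretion signal and act inside cells or after release from them, and several members of the 18q21 cluster are made in squamous epithelia, where they restrain proteases of the lysosome, of plasminogen activation and of cornified layers. SERPINB3 and SERPINB4 were first known as the squamous cell carcinoma antigens.

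The sequences shown are some of the promoters and a choice of the regions, most of which differed between libraries. The SERPINB5 promoter is given from RefSeq (GRCh38.p14, plus strand, chr18:63476708-63477007), as are the SERPINB3 promoter (minus strand, chr18:63661844-63662143) and the SERPINB4 promoter (minus strand, chr18:63644207-63644506). RefSeq promoters were found for 8 of the 10 members, with 11 promoters in all, and not for SERPINB10 and SERPINB11. The other sequences are 300 bases of the plus strand of hg38 around the highest summit of a region. Capitals mark matches to the motifs searched, except in SERPINB3 and SERPINB4, where they mark the bases at which these promoters differ from each other. SERPINB5 and SERPINB8 are shown because their promoters were open in every library. For SERPINB8 the sequence is that around the summit. Its RefSeq promoter, chr18:63969831-63970130, is not shown and holds an AP1 match and a GAS match.
SERPINB5 promoter: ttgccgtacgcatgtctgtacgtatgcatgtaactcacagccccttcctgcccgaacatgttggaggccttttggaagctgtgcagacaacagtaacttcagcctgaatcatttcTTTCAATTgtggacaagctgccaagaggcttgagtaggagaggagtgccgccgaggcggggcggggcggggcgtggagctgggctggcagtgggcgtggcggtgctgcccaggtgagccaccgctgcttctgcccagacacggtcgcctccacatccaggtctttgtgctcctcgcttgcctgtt
SERPINB8 promoter region, chr18:63970351-63970650: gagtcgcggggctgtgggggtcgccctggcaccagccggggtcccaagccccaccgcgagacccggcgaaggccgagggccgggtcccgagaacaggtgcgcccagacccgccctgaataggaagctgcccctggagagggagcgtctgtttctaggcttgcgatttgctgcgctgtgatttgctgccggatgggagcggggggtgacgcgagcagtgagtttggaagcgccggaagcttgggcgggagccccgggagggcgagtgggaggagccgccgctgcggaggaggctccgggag
The next sequences lie upstream of SERPINB5 and in SERPINB11, and are shown because they were lower in a knockout library or listed in WT-IFN-γ alone.
SERPINB5 upstream region at −6110 bp, chr18:63470698-63470997: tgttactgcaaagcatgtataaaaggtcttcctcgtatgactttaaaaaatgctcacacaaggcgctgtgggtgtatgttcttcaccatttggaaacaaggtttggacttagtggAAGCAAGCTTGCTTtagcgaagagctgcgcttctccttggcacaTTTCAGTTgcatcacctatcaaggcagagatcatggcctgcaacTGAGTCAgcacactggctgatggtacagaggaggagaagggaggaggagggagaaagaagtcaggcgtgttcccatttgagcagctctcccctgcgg
SERPINB5 upstream region at −4386 bp, chr18:63472422-63472721: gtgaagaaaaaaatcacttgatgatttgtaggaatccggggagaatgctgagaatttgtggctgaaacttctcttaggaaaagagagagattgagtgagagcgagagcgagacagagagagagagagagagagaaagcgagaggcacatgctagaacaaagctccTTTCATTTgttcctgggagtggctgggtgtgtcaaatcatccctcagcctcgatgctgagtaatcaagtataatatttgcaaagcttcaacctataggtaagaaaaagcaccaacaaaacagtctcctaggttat
SERPINB11 region, chr18:63683208-63683507: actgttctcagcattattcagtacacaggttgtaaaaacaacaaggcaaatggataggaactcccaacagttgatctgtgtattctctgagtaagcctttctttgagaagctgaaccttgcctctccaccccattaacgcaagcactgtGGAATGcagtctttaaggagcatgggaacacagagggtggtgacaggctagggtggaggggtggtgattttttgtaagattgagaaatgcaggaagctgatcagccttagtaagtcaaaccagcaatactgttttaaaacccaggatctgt
SERPINB8 region at 24944 bp, shown as listed in both WT libraries alone, chr18:63994875-63995174: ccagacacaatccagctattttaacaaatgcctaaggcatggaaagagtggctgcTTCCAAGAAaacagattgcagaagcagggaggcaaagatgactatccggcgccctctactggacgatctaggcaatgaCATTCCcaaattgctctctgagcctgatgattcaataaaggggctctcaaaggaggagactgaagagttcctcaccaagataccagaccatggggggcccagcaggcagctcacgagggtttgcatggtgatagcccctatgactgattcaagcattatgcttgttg
The SERPINB2 and SERPINB3 regions are shown as those with more tags in the knockout libraries, and the SERPINB7 region as the holder of the ETS motif in the cluster.
SERPINB2 region, chr18:63882805-63883104: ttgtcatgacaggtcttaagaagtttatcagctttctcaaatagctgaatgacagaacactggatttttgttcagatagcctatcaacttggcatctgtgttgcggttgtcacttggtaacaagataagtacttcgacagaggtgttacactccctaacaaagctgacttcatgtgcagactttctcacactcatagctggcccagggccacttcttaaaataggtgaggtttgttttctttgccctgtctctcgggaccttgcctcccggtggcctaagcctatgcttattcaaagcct
SERPINB3 region, chr18:63658748-63659047: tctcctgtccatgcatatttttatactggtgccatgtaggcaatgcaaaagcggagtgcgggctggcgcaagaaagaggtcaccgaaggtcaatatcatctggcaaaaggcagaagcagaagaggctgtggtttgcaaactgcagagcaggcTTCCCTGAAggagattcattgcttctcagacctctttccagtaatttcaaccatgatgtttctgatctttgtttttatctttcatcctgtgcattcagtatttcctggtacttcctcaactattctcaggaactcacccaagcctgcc
SERPINB7 region, chr18:63788516-63788815: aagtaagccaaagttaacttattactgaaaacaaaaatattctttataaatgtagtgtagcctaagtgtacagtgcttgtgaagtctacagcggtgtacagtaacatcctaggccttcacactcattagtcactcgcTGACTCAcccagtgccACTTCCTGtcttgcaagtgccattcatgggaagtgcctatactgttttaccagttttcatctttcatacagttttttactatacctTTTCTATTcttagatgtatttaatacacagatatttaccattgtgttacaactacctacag
The promoters of SERPINB3 and SERPINB4 are shown because reads from near-identical copies cannot always be placed.
SERPINB3 promoter: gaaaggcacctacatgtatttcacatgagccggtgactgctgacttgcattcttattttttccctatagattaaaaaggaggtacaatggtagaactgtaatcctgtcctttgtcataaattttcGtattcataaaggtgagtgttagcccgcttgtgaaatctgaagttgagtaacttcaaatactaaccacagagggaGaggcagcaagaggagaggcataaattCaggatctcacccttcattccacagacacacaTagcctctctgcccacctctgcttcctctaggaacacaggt
SERPINB4 promoter: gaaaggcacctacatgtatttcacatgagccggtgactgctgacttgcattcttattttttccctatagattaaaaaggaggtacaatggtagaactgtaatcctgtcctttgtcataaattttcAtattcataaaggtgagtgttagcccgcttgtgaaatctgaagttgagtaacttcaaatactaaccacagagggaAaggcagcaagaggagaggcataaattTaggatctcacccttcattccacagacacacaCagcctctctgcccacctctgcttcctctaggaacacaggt

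The lists held 59629 to 67470 peaks, and background tag density ran from 6.86 to 8.84 tags per kb of genome, highest in WT-IFN-γ and lowest in sgFLI1-IFN-γ. The unit used for a region is the summit tag count, the number of sequenced tags stacked over the highest point of its peak. It was recovered as a whole number from the listed fold and p. To compare libraries, summit tags were divided by the tag density of the library, and the quotient is called normalised tags. Intervals are 95% intervals of counting error alone, exact Poisson for a tag count and exact conditional binomial for a ratio. Of 6 epithelial markers, EPCAM and DSP had a promoter peak in every library and CDH1 in 3 of the 4, whereas TP63, KRT5 and KRT14, which define basal squamous cells, had none. The blood markers PTPRC, CD3E and SPI1 had no promoter peak in any library, while both fibroblast markers had one in all 4. Of the endothelial markers, PECAM1 had a promoter peak in both knockout libraries and in neither WT library, and CDH5 in WT and sgFLI1-IFN-γ.

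Fewer of the members than of genes in general had a listed peak. The number of members with at least 1 peak in their window was 4 untreated and 5 with IFN-γ for WT cells, and 6 in each knockout library. In both knockout libraries 1 region, that in the overlap of SERPINB3 and SERPINB11, counted for both members. Among all 19960 protein-coding genes, 82.7% to 84% had a peak in the same kind of window. A promoter peak, meaning a summit within 1 kb of an annotated transcription start site (TSS), was listed for 2 members in every library, SERPINB5 and SERPINB8. Over all protein-coding genes the share with a promoter peak was 65.9% to 67.2%, and over the 266 of chromosome 18 it was 66.5% to 70.3%. In WT cells the windows held 8 peaks untreated and 9 with IFN-γ, and in knockout cells 7 and 6. SERPINB4, SERPINB10, SERPINB12 and SERPINB13 had no region in their windows in any library.

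**Figure D1:**
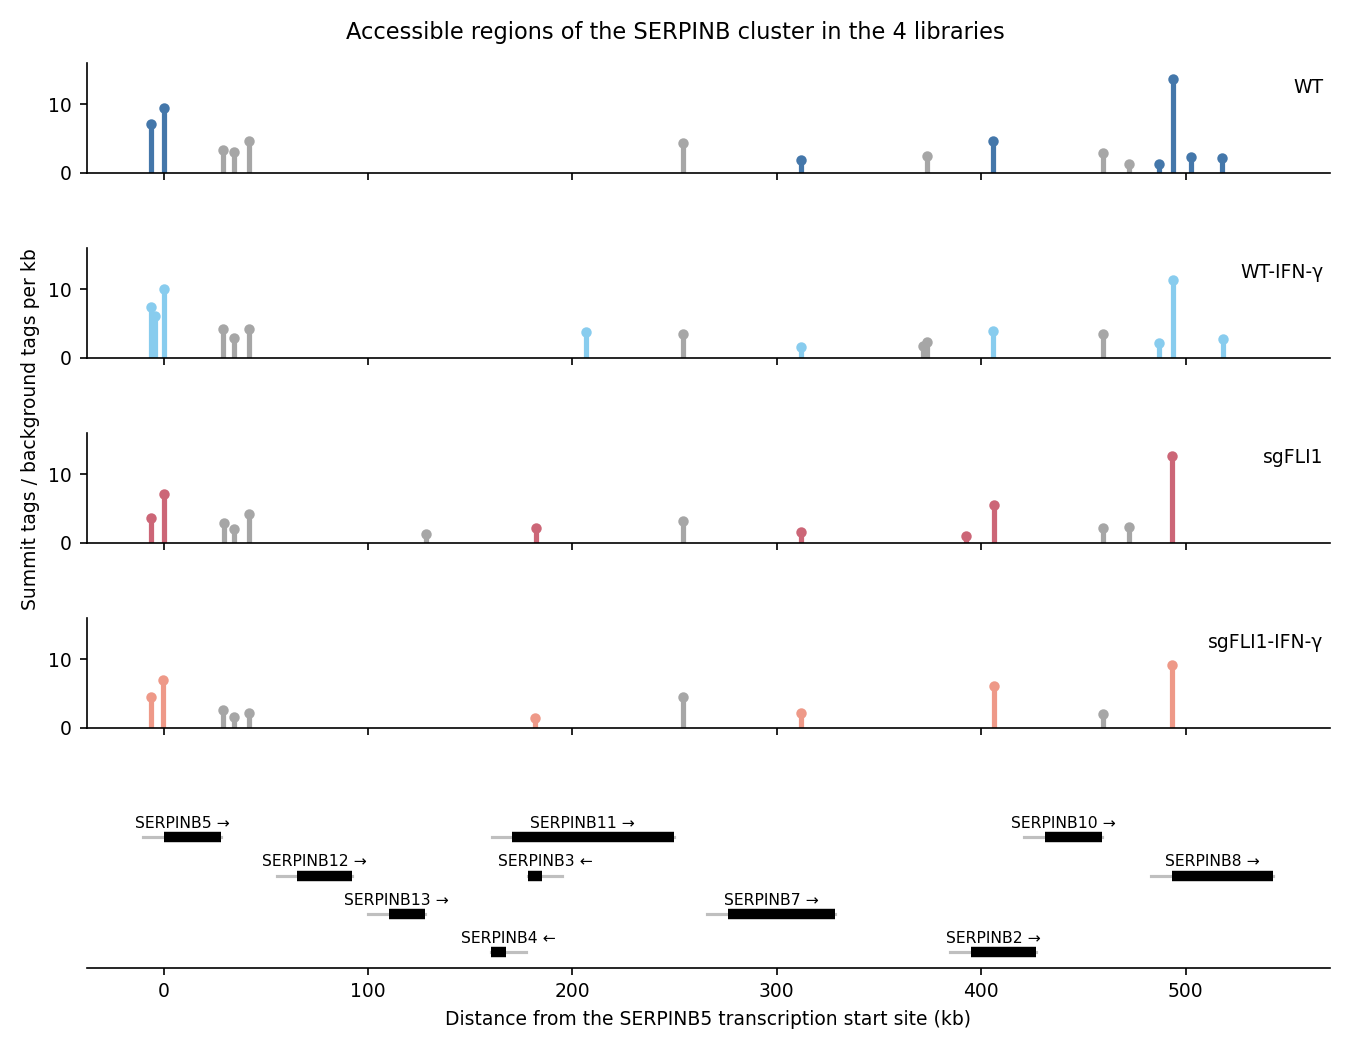
Normalised summit tags (summit tags over background tags per kb) of every listed region in the interval, 1 panel per library, against the distance in kb from the SERPINB5 TSS. Coloured stems are the 12 regions in member windows and grey stems the 9 others; black bars are gene bodies with the direction of transcription, and thin lines are windows. The tallest stems in all 4 libraries stand at the promoters of SERPINB5 and SERPINB8, at opposite ends of the cluster.

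SERPINB8 and SERPINB5 held the most accessible regions. SERPINB8 encodes an inhibitor of the proprotein convertase furin. Its promoter region, chr18:63969991-63971153, had 109 summit tags untreated (interval 89.5 to 131.5) and 101 with IFN-γ (82.27 to 122.7) in WT cells. In knockout cells it had 87 untreated (69.68 to 107.3) and 63 with IFN-γ (48.41 to 80.6). As normalised tags these 4 values were 13.6, 11.4, 12.6 and 9.18, so the library with IFN-γ was the lower of each genotype and sgFLI1-IFN-γ was the lowest of all. By −log10 q the peak stood at percentiles 91.9, 88.8, 90.8 and 84.3 of its own list, in the same order. The summit lay in an intron of the canonical SERPINB8 transcript, 420 bp after its TSS and −4 bp from the TSS of another SERPINB8 transcript, in a part that a long HMSD transcript also spans.

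SERPINB5 encodes maspin, a serpin without protease-inhibiting activity that is known as a tumour suppressor of epithelia. Its promoter region, chr18:63476489-63478386, had its summit in exon 1, 3 bp after the TSS. Its summit tags numbered 76 in WT (59.88 to 95.13) and 88 in WT-IFN-γ (70.58 to 108.4). The knockout libraries had 49 untreated (36.25 to 64.78) and 48 with IFN-γ (35.39 to 63.64). Both WT libraries were above both knockout libraries, also as normalised tags, at 9.45 and 9.96 against 7.07 and 7. The promoters of SERPINB5 and SERPINB8 were the most GC-rich regions of the cluster, with 65.2% and 67.2% G and C within 100 bp of the summit, whereas the median was 49.3% over the cluster and 49.8% over all regions.

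The lower tags in knockout cells have to be read against the whole chromosome. Over chromosome 18 outside the members' windows, regions listed in both libraries had a median log2 ratio of normalised tags of sgFLI1 to WT that lay −0.30 from the genome-wide median, and −0.35 for sgFLI1-IFN-γ to WT-IFN-γ. Chromosome 18 was the lowest of 23 chromosomes in both pairs. The shift ran through both arms, at −0.30 on the long arm and −0.29 on the short arm in untreated cells. Within 5 Mb of the cluster it was −0.31 over 86 regions untreated and −0.40 over 83 regions with IFN-γ. The treatment pairs showed little of it, at 0.03 in WT cells and −0.01 in knockout cells. Ratios were therefore centred on the median of chromosome 18 outside the windows, and uncentred values are given beside the knockout ratios.

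**Figure D2:**
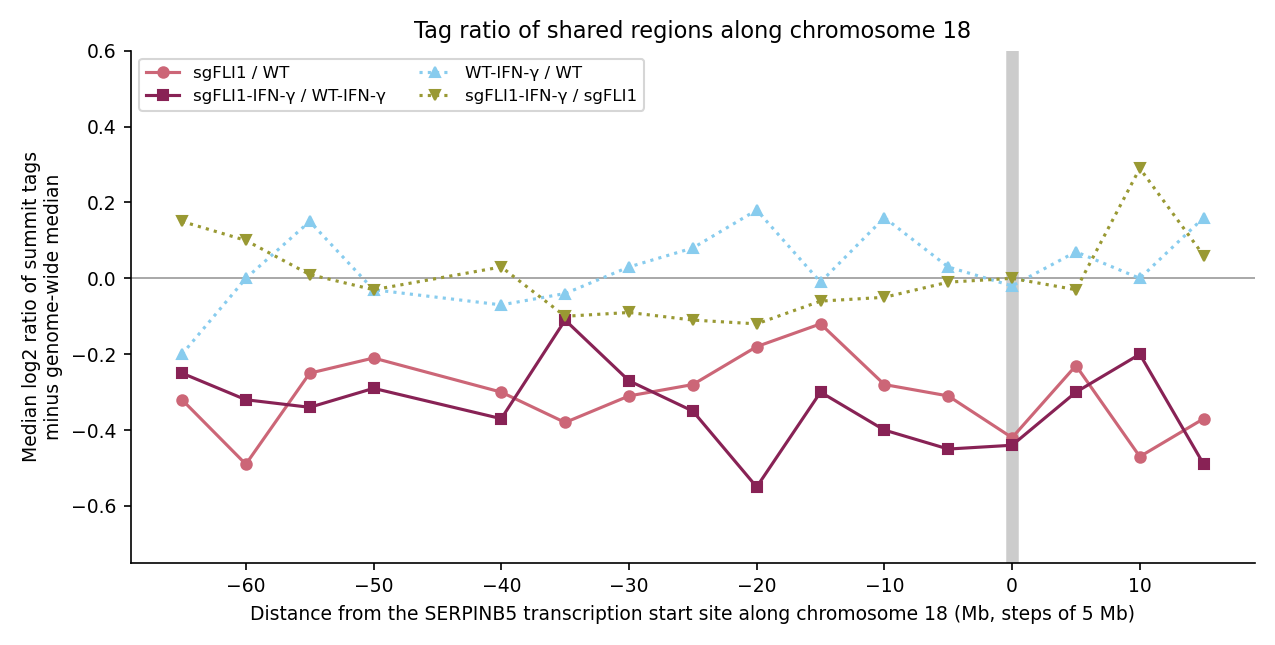
Median log2 ratio of normalised summit tags of regions listed in both libraries, less the genome-wide median, in steps of 5 Mb along chromosome 18, against the distance in Mb from the SERPINB5 TSS (grey bar at 0). Filled circles and squares are knockout against WT without and with IFN-γ, triangles on dotted lines are IFN-γ against untreated; every step of both knockout pairs lies below 0, from −0.12 to −0.49 untreated and from −0.11 to −0.55 with IFN-γ.

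After centring, the promoters of both genes were close to the rest of the chromosome. The sgFLI1 to WT ratio of the SERPINB5 promoter was 0.89 (0.608 to 1.29), which had been 0.748 before centring. Its sgFLI1-IFN-γ to WT-IFN-γ ratio was 0.906 (0.624 to 1.3) and had been 0.703. The same ratios of the SERPINB8 promoter were 1.1 (0.821 to 1.47) and 1.04 (0.744 to 1.43). They had been 0.926 (0.691 to 1.24) and 0.804 (0.577 to 1.11), so centring turned both from below 1 to above it. With IFN-γ, the SERPINB5 promoter stood at 1.08 of untreated WT (0.788 to 1.49) and 1.09 of untreated sgFLI1 (0.719 to 1.66), and the SERPINB8 promoter at 0.867 (0.655 to 1.15) and 0.808 (0.575 to 1.13). All 8 intervals held 1.

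Upstream of SERPINB5, a region at −6110 bp, chr18:63470371-63471329, was listed in all 4 libraries. WT cells had 57 summit tags there untreated (43.17 to 73.85) and 65 with IFN-γ (50.17 to 82.85), and knockout cells had 25 (16.18 to 36.9) and 31 (21.06 to 44). Both WT libraries were above both knockout libraries, also as normalised tags, at 7.09 and 7.35 against 3.61 and 4.52. The intervals of WT and sgFLI1 did not overlap, but these are of tags neither divided by tag density nor centred on the chromosome. The centred sgFLI1 to WT ratio was 0.605 (0.362 to 0.985), at percentile 5.48 of 675 shared regions of chromosome 18. With IFN-γ the ratio was 0.792 (0.499 to 1.23), at percentile 18.4. Uncentred, they were 0.509 (0.305 to 0.828) and 0.614 (0.387 to 0.956). The 300 bases around its summit, printed above, hold overlapping TP63 matches, an IRF match and an AP1 match.

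A second upstream region, at −4386 bp (chr18:63472402-63472747), was listed in WT-IFN-γ alone with 54 summit tags (40.57 to 70.46) over a local background of 15.3 tags. That background is several times the 2.2 tags of the library as a whole, so the peak ranked only at percentile 44.8 of its list. At the background set for the region, WT would have needed 29 tags to be listed and each knockout library 25. WT-IFN-γ was thus at least 1.69-fold higher than WT, and at least 1.68-fold higher than sgFLI1-IFN-γ or 1.3-fold after centring, before counting error in the 54 tags. The sequence holds an unbroken dinucleotide repeat of 20 bp beside the summit, the longest among the 12 regions, and its part in the tag count was not tested. Of the 10852 other regions listed in WT-IFN-γ alone, 98.2% had no more summit tags.

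SERPINB8 had the other group of regions with more tags in WT cells. A region at −6273 bp from the canonical TSS, chr18:63963552-63964233, inside the HMSD gene body, held 10 summit tags in WT (4.795 to 18.39) and 19 in WT-IFN-γ (11.44 to 29.67), and was in neither knockout list. A region at 24944 bp, chr18:63994660-63995441, in the SERPINB8 gene body, held 18 in WT (10.67 to 28.45) and 24 in WT-IFN-γ (15.38 to 35.71) and was also in neither knockout list. These were the 2 cluster regions listed in both WT libraries and no knockout library. Another, chr18:63979077-63979614, was in WT alone with 19 tags (11.44 to 29.67) and had its summit −265 bp from the TSS of a shorter SERPINB8 transcript. Both knockout libraries needed 7 tags to list a peak at these places. Before counting error in its 24 and 19 tags, WT-IFN-γ was at least 2.66-fold above sgFLI1-IFN-γ at 24944 bp and at least 2.11-fold at −6273 bp. Centring lowered these to 2.06 and 1.63. In untreated cells the bounds, also before counting error, were 2.22 and 1.23, or 1.86 and 1.04 after centring. The region at −6273 bp thus came close to the limit of detection in WT as well. The share of regions in both WT lists and no knockout list was 16.7% in the cluster, 10.5% on chromosome 18 outside it and 4.2% over the genome.

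SERPINB2 encodes plasminogen activator inhibitor 2, which blocks urokinase. Its main region, chr18:63882107-63883129, lay in the gene body at −4750 bp from the canonical TSS and had 37 summit tags in WT (26.05 to 51) and 34 in WT-IFN-γ (23.55 to 47.51). Knockout cells had 38 untreated (26.89 to 52.16) and 42 with IFN-γ (30.27 to 56.77). The 4 intervals overlapped although the knockout libraries were shallower, and as normalised tags both knockout libraries (5.48 and 6.12) were above both WT libraries (4.6 and 3.85). The centred ratio of sgFLI1-IFN-γ to WT-IFN-γ was 2.05 (1.27 to 3.33), at percentile 97.1 of 662 shared regions of chromosome 18, and uncentred it was 1.59 (0.988 to 2.58). In untreated cells the centred ratio was 1.42 (0.877 to 2.29) and the uncentred one 1.19 (0.738 to 1.93). The sequence around this summit holds none of the motifs searched. A further region at −1977 bp from the TSS of the longest SERPINB2 transcripts, chr18:63869643-63869920, was listed in sgFLI1 alone with 7 tags, the fewest that this list holds, and 8 were needed in either WT library.

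SERPINB3 and SERPINB4 inhibit cysteine cathepsins and chymotrypsin-like proteases respectively. The single region of SERPINB3, chr18:63658754-63659048, lay in an intron 2995 bp after the canonical TSS and also inside a long SERPINB11 transcript. Knockout cells had 15 summit tags untreated (8.395 to 24.74) and 10 with IFN-γ (4.795 to 18.39), and the region was in neither WT list, in which 8 tags were needed. It was the 1 cluster region listed in both knockout libraries and no WT library, a share of 8.33% beside 2.12% on chromosome 18 and 3.56% over the genome. Before counting error in the 15 and 10 tags, the lower bounds of knockout against WT were 2.18-fold untreated and 1.61-fold with IFN-γ. After centring they were 2.59 and 2.08. SERPINB4 had no region. The promoters of these genes share 296 of 300 bases, and 21.9% of the 50-base stretches of the SERPINB3 gene body recur in the SERPINB4 window. The study's methods remove reads of low mapping quality, so a lack of peaks at the promoters of SERPINB3 and SERPINB4 is uncertain. Of the 295 bases of the SERPINB3 region, 281 match at the best place in the SERPINB4 window.

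SERPINB11 encodes a serpin that lacks inhibitory activity in humans. Beside the region it shares with SERPINB3, it had 1 region, chr18:63683088-63683504, in its gene body −19602 bp from the canonical TSS. This region was listed in WT-IFN-γ alone, with 33 summit tags (22.72 to 46.34) over a background of 2.27. The limit for listing was 8 tags in WT and 7 in each knockout library. Before counting error in the 33 tags, WT-IFN-γ was thus at least 3.75-fold higher than WT. On the same terms it was at least 3.66-fold higher than sgFLI1-IFN-γ, or 2.84-fold after centring. Among regions listed in WT-IFN-γ alone the median summit was 13 tags over the genome and 14 on chromosome 18, and 93.9% of the former had no more than 33. The sequence holds a TEAD match at the summit and no IRF or GAS match, the motifs tied to interferon responses.

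SERPINB7 encodes a serpin of the upper epidermis that restrains kallikrein proteases. Its one region, chr18:63788171-63788896 in intron 2, was weak in every library, with 15 summit tags untreated and 14 with IFN-γ in WT cells, and 11 and 15 in knockout cells. All 4 intervals overlapped. The largest centred ratios were 1.78 (0.801 to 3.98) for sgFLI1-IFN-γ to WT-IFN-γ, uncentred 1.38 (0.621 to 3.09), and 1.52 (0.653 to 3.66) for sgFLI1-IFN-γ to sgFLI1. For sgFLI1 to WT the ratio was 1.01 (0.42 to 2.36), uncentred 0.851 (0.354 to 1.98). SERPINB10, a serpin of blood cells, SERPINB12, an inhibitor of trypsin-like proteases, and SERPINB13, an inhibitor of cathepsins of the lysosome, had no region in their windows. At the library background a summit of 8 tags in the WT libraries or 7 in the knockout libraries would have been listed, so openness below that level was not detectable. Just outside these windows, 57 bp past the end of SERPINB10, a region held 23, 31, 15 and 14 tags, WT first and then WT-IFN-γ, untreated knockout and treated knockout. A region 369 bp past the end of SERPINB13 held 9 tags in sgFLI1 alone. Another lay 605 bp past the end of SERPINB5 with 27, 37, 20 and 18 tags in that order. The tags of these outside regions were not divided by tag density.

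**Figure D3:**
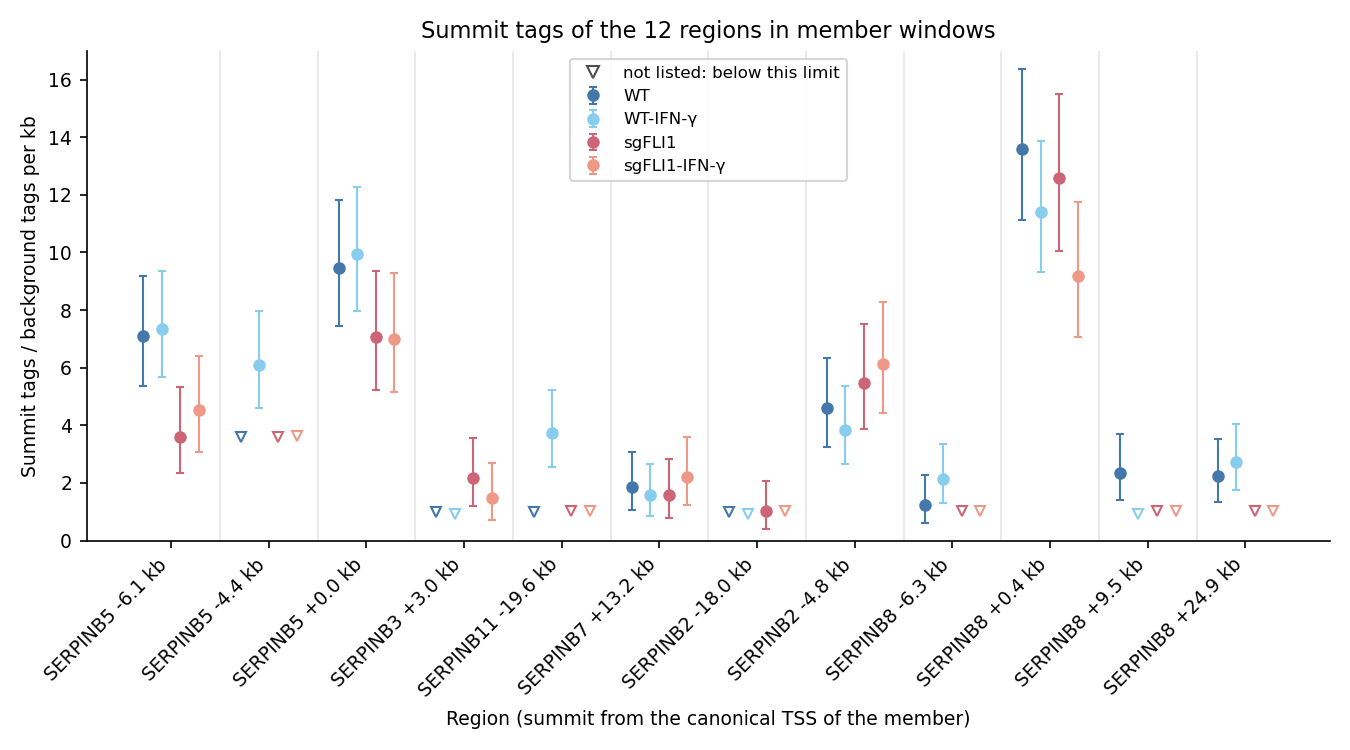
Normalised summit tags of the 12 regions in member windows, in order along the chromosome and named by the nearest canonical TSS of a member and the distance of the highest summit from it. Points are libraries with 95% Poisson intervals, and open triangles mark the lowest value a library would have listed where it has no peak; the SERPINB8 promoter runs from 9.18 to 13.6, and 7 of the 12 regions have at least 1 triangle.

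Set against all regions, the share of the cluster listed in WT cells only was close to that of its chromosome. When WT cells received IFN-γ, 2 of the 10 regions listed in either library were gained and 1 was lost, beside 22.1% gained and 12.3% lost over the genome. In knockout cells, 0 of 7 were gained and 1 was lost, beside 14.4% and 18.9%. Between untreated sgFLI1 and WT, 2 of 10 were listed in sgFLI1 only and 3 in WT only, beside 21% and 16.8%. With IFN-γ, 1 of 10 was listed in sgFLI1-IFN-γ only and 4 in WT-IFN-γ only, beside 14.9% and 24.6%. Chromosome 18 outside the cluster had 11.5% and 27.8% for the untreated pair and 8.73% and 36.7% for the IFN-γ pair. With IFN-γ against untreated it had 22% gained and 12.2% lost in WT cells, and 13.8% and 17.4% in knockout cells. The 30% and 40% of the cluster listed in WT cells only are thus nearer to chromosome 18 than to the genome. The 20% listed in untreated sgFLI1 only is nearer to the genome. With 10 regions, 1 region moves a share by 10 percentage points. The 4 pairs share libraries and are not independent.

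Among regions listed in both libraries of a pair, the median centred log2 ratio was 0.09 for WT-IFN-γ to WT over 7 regions, 0.22 for sgFLI1-IFN-γ to sgFLI1 over 6, 0.02 for sgFLI1 to WT over 5 and 0.05 for sgFLI1-IFN-γ to WT-IFN-γ over 5. Uncentred, the medians of the knockout pairs were −0.23 and −0.32. At least 1.5-fold higher with IFN-γ was 1 of 7 in WT cells, beside 7.61% of all regions, and 1 of 6 in knockout cells, beside 4.87%. These were the SERPINB8 region at −6273 bp and the SERPINB7 region. None was 1.5-fold lower in either pair (genome 5.26% and 3.07%). Of 5, 0 were higher in sgFLI1 than in WT (10.9%) and 1 was lower (9.22%), the SERPINB5 region at −6110 bp. With IFN-γ, 2 of 5 were higher in knockout cells (10.7%), in SERPINB2 and SERPINB7, and 0 were lower (9.6%). Over the 4 pairs, 2 of 23 centred ratios had a counting interval that left out 1, the SERPINB5 region at −6110 bp in untreated cells and the SERPINB2 region with IFN-γ. Over all shared regions the interval lay below 1 in 5.54% and above it in 7.57% for sgFLI1 to WT, and below in 6.82% and above in 6% for sgFLI1-IFN-γ to WT-IFN-γ. For WT-IFN-γ to WT it lay above in 4.98% and below in 2.09%, and for sgFLI1-IFN-γ to sgFLI1 in 1.07% and 1.03%, where 0 cluster regions did. Of the 23 intervals, 2 also left out 1 before centring, both of the SERPINB5 region at −6110 bp, with and without IFN-γ.

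**Figure D4:**
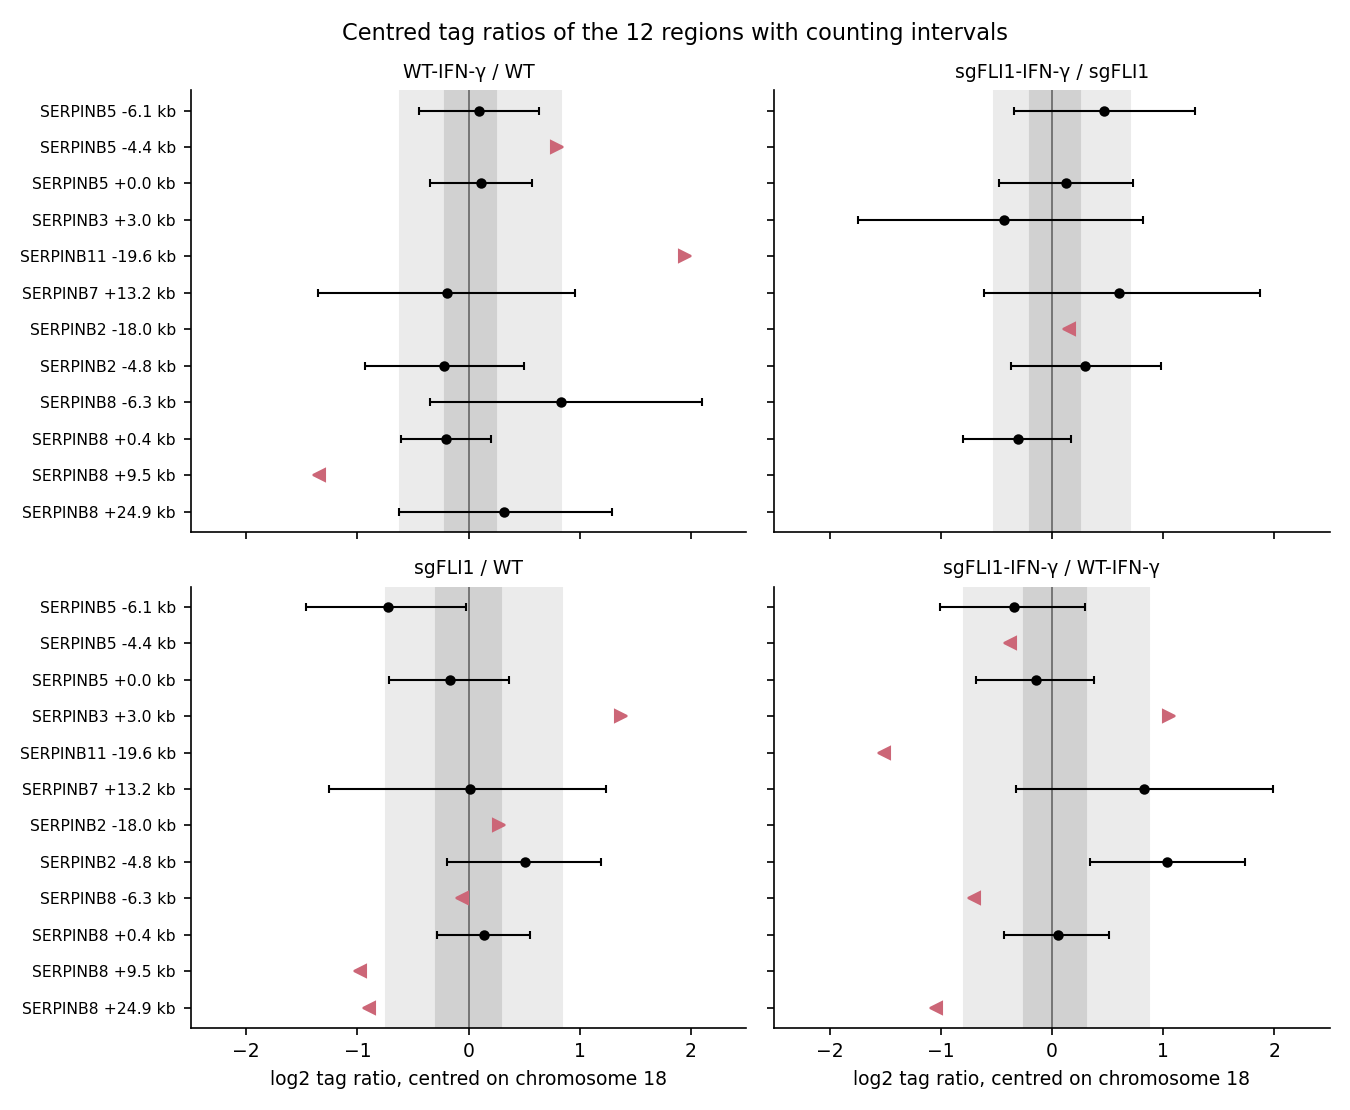
Centred log2 tag ratios of the 12 regions in the 4 pairs. Black points are regions listed in both libraries with 95% counting intervals. Coloured triangles are bounds, without counting error, for regions listed in 1 library of the pair, and point to the side on which the ratio lies. The grey bands hold the middle 50% and 90% of chromosome 18 outside the windows. Of the 23 intervals, 2 leave out 0, those of the SERPINB5 region at −6110 bp and the SERPINB2 region at −4750 bp.

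Motifs were counted within 100 bp of the highest summit on both strands. GAS, TTCNNNGAA, was in 3 of the 12 regions, those of SERPINB3, of SERPINB2 at −1977 bp and of SERPINB8 at 24944 bp, which is 25% beside 6.57% of all regions. IRF, AANNGAAA, was also in 3, the upstream regions of SERPINB5 and the region of SERPINB7, 25% beside 21.6%. Among regions listed in WT-IFN-γ alone 39.8% held IRF and 10.2% GAS, and of the cluster's 2 regions of that kind the one upstream of SERPINB5 held IRF. AP1, TGACTCA, was in 2 regions (16.7% beside 18.3%), TEAD, CATTCC, in 2 (16.7% beside 14.8%) and TP63 in 1 (8.33% beside 5.56%). ETS, CNGGAAGT, the class of motif that FLI1 binds, was in 1, the SERPINB7 region (8.33% beside 4.8%). No matches of different motifs overlapped. In the 11 RefSeq promoters of 8 members, ETS had 0 matches, beside 9.38% of all 35097 RefSeq promoters, and AP1 had 4, beside 4.95%. GAS was in 3 (7.66%), IRF in 4 (22.8%), TEAD in 2 (14%) and TP63 in 1 (6.64%). A match is a run of letters and was not tested for binding.

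Of the serpins of the other clade B cluster, on chromosome 6p25, 2 of 3 had a promoter peak in every library, and of the 18q21 members 2 of 10 did. SERPINB1, an inhibitor of neutrophil proteases, held 149 and 169 summit tags in WT cells without and with IFN-γ and 118 and 105 in knockout cells. SERPINB6 held 82, 91, 67 and 68 in that order, in which the genes below are also given. The tags in this paragraph were not divided by tag density. That density was 8.04 and 8.84 tags per kb in WT and WT-IFN-γ, and lower in sgFLI1 and sgFLI1-IFN-γ, at 6.93 and 6.86. Lower tags in knockout cells are therefore not by themselves lower accessibility. SERPINB9, the granzyme B inhibitor, had no promoter peak in any library. Of the 12 proteases and receptors tied to the members, 6 had a promoter peak in WT, WT-IFN-γ and sgFLI1-IFN-γ and 7 in sgFLI1. Urokinase (PLAU), the target of SERPINB2, held 109, 106, 99 and 91 promoter tags, and its receptor PLAUR held 169, 159, 131 and 124. Furin (FURIN), the target of SERPINB8, held 51, 56, 47 and 59. Cathepsin S (CTSS), a target of SERPINB3, held 31, 58, 13 and 15. CTSG and CMA1, proteases of neutrophils and mast cells, had no peak at all. The 15 S100A genes of chromosome 1q21, another family with some members made in squamous cells, had a promoter peak in 9 to 12 members by library. In the SERPINB cluster it was 2 of 10. S100A1 and S100A13 held the same promoter tags in each library, 130, 140, 142 and 126, and each was counted.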

How the data were processed

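ATAC-seq peak lists of 4 HK1 libraries, 1 per group, were used. The methods of the study state that the authors ran Trimmomatic 0.3, Bowtie2 2.3.4.1 against GRCh38, a mapping quality filter, duplicate removal with Picard, and peak calling with MACS2 2.1.2. An IDR filter is named, but whether a list is pooled, or precedes that filter, was not given in the sources used here. A transposase shift of tag ends was not given either. The deposited columns are a score, a fold enrichment (ratio), the −log10 of p and q for the summit, and a summit offset in bases.

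Summit tags were the whole number solving the deposited fold, (tags + 1) / (background + 1), and the Poisson p, to a relative tolerance of 0.0001. All peaks were solved in 3 lists, and all but 1 in the fourth. Tag density was the lowest background over the shortest peak, and is relative, since it depends on the genome size set in MACS2. No molecular identifiers are described, so the intervals take in counting error and nothing else.

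Regions joined peaks sharing at least 1 base. "Gained" and "lost" are regions listed in only the first or second library of a pair. Where a library had no peak, the fewest tags passing its p limit were taken at the highest background found for the region there or, scaled, in other libraries. All 12 regions and all members are named, other genes only as counts or where tied to a member. Of the cell type markers examined, 1 is not reported here. Members and lists were chosen with earlier results of these data known. TP63 matches followed its half-site consensus. Recovery, joining, intervals and motif search were tested on simulated data. Work used Python 3.11.15, numpy 2.4.6, pandas 2.3.3, scipy 1.17.1, matplotlib 3.10.9 and GENCODE 44.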

Additional observations from a re-analysis of the deposited data

Results flagged for a closer look

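Several results moved in opposite directions with IFN-γ in the WT and knockout cells. Each rests on 1 library per group, and the difference between the genotypes was not tested. The number of cluster peaks changed by 1 in WT cells, from 8 to 9, and by -1 in knockout cells, from 7 to 6. The SERPINB7 region had a centred log2 ratio of IFN-γ to untreated of -0.20 in WT cells and 0.61 in knockout cells, on 11 to 15 tags a library. The SERPINB2 region at −4750 bp had -0.22 in WT cells and 0.30 in knockout cells. The counting interval of each of these 4 ratios held 0 on the log2 scale.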

How the results depend on the processing

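No paired analysis was possible because each group held 1 library. Of 184 values recomputed under other settings, 147 stayed within a set limit and 37 did not. For a count the limit was 1.5 times the reported one. For a median ratio it was the counting error of the ratio of tags summed over the shared cluster regions, not of the median itself. Of the median ratios, none of which reached 1.5-fold as reported, several changed sign, and those that moved past the counting error are given here. The cause of the others was not tested, except that stricter limits leave fewer peaks and wider windows take in more.

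At −log10 q of at least 5, gained regions were 1 for sgFLI1-IFN-γ to sgFLI1, 1 for sgFLI1 to WT and 0 for sgFLI1-IFN-γ to WT-IFN-γ. Members with a peak were then 4, 5, 5 and 4 in WT, WT-IFN-γ and the untreated and treated knockout. At a limit of 10, WT held 5 cluster peaks and sgFLI1 4, and 3 members had a peak in each knockout library. Gained regions were then 4 for WT-IFN-γ to WT and 0 for both knockout pairs, and lost ones 0 for sgFLI1-IFN-γ to sgFLI1 and 1 for sgFLI1 to WT.

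With gene bodies alone, WT-IFN-γ to WT gained 1 region, sgFLI1 to WT gained 1, sgFLI1-IFN-γ to sgFLI1 lost 0 and sgFLI1-IFN-γ to WT-IFN-γ lost 2. With 3 kb upstream, WT-IFN-γ to WT gained 1 and the IFN-γ knockout pair lost 2. Both windows gave median log2 ratios of -0.20 for WT-IFN-γ to WT and 0.44 for sgFLI1-IFN-γ to WT-IFN-γ. The whole interval held 15, 16, 14 and 11 peaks, lost 2 regions with IFN-γ in WT and 3 in knockout cells, and had a median of -0.22 for the IFN-γ knockout pair.

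With promoters of 3 kb, sgFLI1 had 4 members open. Matching summits within 150 bp gave 1 gained and 2 lost for sgFLI1-IFN-γ to sgFLI1 and 2 gained for the IFN-γ knockout pair, and a reciprocal overlap of 50% gave 2 lost for WT-IFN-γ to WT. The sgFLI1-IFN-γ to WT-IFN-γ median was -0.32 uncentred and -0.29 centred on the genome, and sgFLI1 to WT then was -0.28. Thinning to the shallowest library, a background subtraction and centring within 5 Mb or on the long arm moved no value beyond these limits. Summits of 7 to 8 tags are the least the lists show.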
